A study of Callithrix jacchus with 39 samples.

Results

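The regulatory maps of liver and kidney of Callithrix jacchus, the common marmoset, a New World monkey, were set against each other for 2 histone marks. The 8 libraries, chosen by their titles, were liver H3K27ac, kidney H3K27ac, liver H3K4me3 and kidney H3K4me3 with 2 numbered replicates each, out of 31 ChIP libraries from 8 tissues. When regions of a mark that shared at least 1 bp were merged over liver and kidney, 72148 H3K27ac regions and 26902 H3K4me3 regions resulted, against 139484 and 35171 when all tissues of the series were merged. A region met by both liver libraries and no kidney library of a mark is called liver-only here, a region met by both kidney libraries and no liver library kidney-only, and the comparison class is the regions met by all 4 libraries. These names describe this pair of tissues alone, and the other 6 tissues (colon, heart, pancreas, skeletal muscle, spleen and stomach) serve as background.

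Chromatin immunoprecipitation with sequencing (ChIP-seq) used antibodies ab4729 for H3K27ac and ab8580 for H3K4me3 on tissue, and each library was represented by its own list of peaks, here called regions. The labels give no strain, age, sex, treatment or number of animals for either tissue. They do not tell whether the replicates came from separate animals, so every p-value refers to these samples alone. In comparisons of classes, the libraries of a tissue are scored on the same merged regions, so those p-values do not measure the spread between replicates. Read depth behind the lists is unknown, and absence from a list means that no peak was called. No gene annotation of the build calJac3 was used here, so neither tissue was checked against its marker genes and no region was assigned to a gene.

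H3K27ac is an acetylation of histone H3 found at active promoters and active enhancers. H3K4me3 is a trimethylation found mainly at promoters, so H3K27ac regions without H3K4me3 are commonly used as a map of candidate enhancers. Liver is dominated by hepatocytes, which carry out bile acid, lipid and drug metabolism, whereas kidney is a mosaic of glomerular, tubular and collecting duct cells. In such bulk tissue, fewer cells of a type and less mark per cell cannot be told apart.

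The liver H3K27ac lists were the longer ones. They held 46317 and 51554 regions covering 40.5 and 47.4 Mb in liver, against 32794 and 31674 regions covering 22.1 and 24.0 Mb in kidney. No liver value overlapped a kidney value. The log2 ratio of liver to kidney was 0.60 for list length and 0.93 for covered length (two-sided exact permutation tests over libraries, p = 0.333 each, adjusted p = 0.357). The H3K4me3 lists were closer in length. They held 20826 and 23787 regions in liver (21.8 and 25.9 Mb), against 21008 and 21046 regions in kidney (20.2 and 20.9 Mb). Their log2 ratio was 0.08 for list length, where the tissues overlapped (exact permutation test, p = 1), and 0.21 for covered length (exact permutation test, p = 0.333, adjusted p = 0.357). The ratio of covered length was 0.34 without liver replicate 1 and 0.08 without liver replicate 2. With 2 libraries against 2 the smallest possible p is 0.333, and with 4 libraries tested for a common sign it is 0.125. None of the 15 planned comparisons could thus pass 0.05, and the smallest adjusted p obtained was 0.268.

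Replicate similarity differed between the tissues for H3K27ac. Of the regions of liver replicates 1 and 2, 78.7% and 67.4% were met by the other liver library, while the kidney libraries met between 34.0% and 41.1% of them. Of the regions of kidney replicate 1, 68.6% were met by kidney replicate 2, against 61.2% and 64.5% by the liver libraries. Kidney replicate 2 stood apart in this measure, with 66.9% of its regions met by kidney replicate 1, 64.1% by liver replicate 1 and 71.0% by the longer list of liver replicate 2. Overlap with the own replicate exceeded mean overlap with the other tissue by 39.3 and 31.4 percentage points in liver and by 5.73 and -0.72 points in kidney (mean 18.9 over 4 libraries, p = 0.25 and adjusted p = 0.357 by an exact permutation of signs). The Jaccard index, which divides shared by total covered length and is less tied to list length, placed every library nearest to its own replicate. It was 0.550 within liver and 0.474 within kidney for H3K27ac, against 0.263 to 0.332 between the tissues. For H3K4me3 it was 0.729 within liver and 0.728 within kidney, against 0.601 to 0.648 between them.

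Acetylated regions were divided between the tissues far more than H3K4me3 regions were. Of the 72148 merged H3K27ac regions, 13701 were liver-only (19%), 3594 were kidney-only (4.98%) and 13548 were met by all 4 libraries (18.8%). There were 3.81 liver-only regions for each kidney-only region, in lists of unequal length. Lists reduced to the 31674 regions of highest deposited fold enrichment each gave 7038 liver-only and 4491 kidney-only regions. The most frequent state was a region in a single library, with 33034 regions (45.8%) and a median length of 395 bp, and such regions enter none of the 3 classes. A further 5721 regions were met by both libraries of a tissue and 1 of the other, and 2550 by 1 library of each tissue. Without liver replicate 1 or 2 the liver-only count became 29530 or 24862, and without kidney replicate 1 or 2 the kidney-only count became 8325 or 10638, since a class then rests on a single library of that tissue. When a library counted as meeting a region only with at least 50% of its length, 7242 regions were met by all 4.

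For H3K4me3, the shared class was the largest. Of the 26902 merged regions, 1930 were liver-only (7.17%), 948 were kidney-only (3.52%) and 14835 were met by all 4 libraries (55.1%). Regions in a single library numbered 6321. Without liver replicate 1 or 2 the liver-only count was 5764 or 3046. The kidney-only count was 1514 without liver replicate 2, and 2267 or 2121 without kidney replicate 1 or 2.

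**Figure D1:**
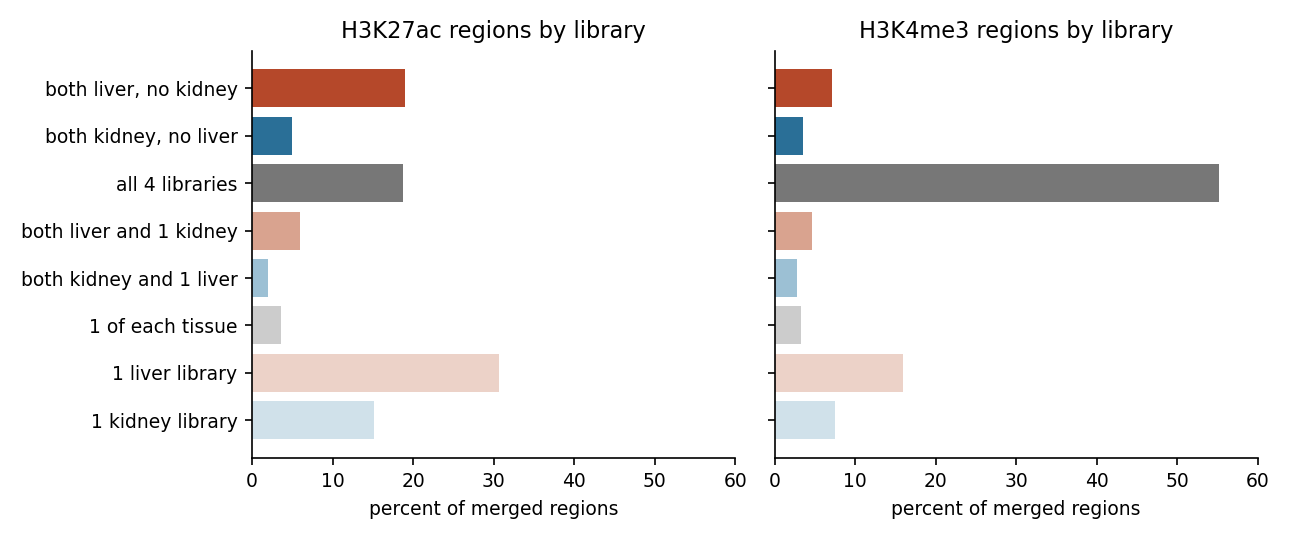
Share of merged regions (percent, x axis) in each state of presence over the 2 liver and 2 kidney libraries (rows), for H3K27ac on the left and H3K4me3 on the right. Liver-only regions made up 19% of the H3K27ac map and 7.17% of the H3K4me3 map, and regions in all 4 libraries made up 18.8% and 55.1%.

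The H3K27ac regions of a single tissue of the pair were mostly without the promoter mark. For this comparison each H3K27ac library gave the share of its own regions that were met by H3K4me3 of the same tissue, in either replicate. In liver, 18.5% and 18.8% of the liver-only regions were met, against 79.8% and 78.7% of the regions of the same libraries in the all-4 class. In kidney, 18.4% and 18.1% of the kidney-only regions were met, against 74.0% and 74.1% in the all-4 class. The difference had the same sign in 4 of 4 libraries and averaged -58.2 ± 2.89 percentage points (SD, n = 4; p = 0.125 and adjusted p = 0.268 by an exact permutation of signs). Without kidney replicate 2 it was -51.2 points. The classes were formed from H3K27ac alone, so H3K4me3 took no part in choosing them. Both libraries of a tissue were scored on the same merged regions and the same H3K4me3, so their values were not independent.

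The liver-only and kidney-only classes had similar shares. Liver-only regions averaged 18.6% ± 0.209 and kidney-only regions 18.2% ± 0.234 (SD, n = 2 each), a liver minus kidney difference of 0.37 points (exact permutation test, p = 0.333, adjusted p = 0.357). Both values of a tissue come from the same merged regions, so these SDs do not measure how far replicates differ. The sign of the liver minus kidney difference was not stable. It was -0.0778 points for the central 300 bp of each region and -1.65 points when both H3K4me3 libraries had to meet the region. Without liver replicate 1 it was -2.07 points and without liver replicate 2 it was -15.7 points, and over the replicates left out in turn it ranged from -15.7 to 16.8 points.

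A longer region is met more easily, and the all-4 class held longer regions, so the share was also taken within bins of length. Among regions of 300 to under 500 bp, 14.03% and 9.92% of liver-only regions were met by H3K4me3, against 61.6% and 30.7% of the all-4 class in the same liver libraries. In kidney, 14.8% and 10.8% of kidney-only regions of that length were met, against 64.5% and 49.5% of the all-4 class. Among regions of 1000 to under 2000 bp, the shares were 25.5% and 26.95% for liver-only against 87.0% and 87.8% for all-4, and 29.4% and 37.2% for kidney-only against 84.8% and 89.0% for all-4. Thus the contrast was present in short and in long regions of every library. From 2000 bp upwards, 51.6% and 49.5% of the liver-only regions were met, against 88.9% and 91.5% of the all-4 regions in liver. Kidney-only regions of that length were few, 55 and 32 in the 2 libraries, of which 56.4% and 78.1% were met, against 88.2% and 92.3% of the all-4 regions in kidney. The contrast was smallest there, in kidney replicate 2.

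Where a tissue-only H3K27ac region did carry H3K4me3, the methylation followed the same tissue more often than the other tissue. Over merged regions, 854 liver-only H3K27ac regions (6.23%) met a region of H3K4me3 that was itself in both liver libraries and no kidney library, and 5 (0.0365%) met the opposite state. Of the kidney-only H3K27ac regions, 275 (7.65%) had H3K4me3 in both kidney libraries and no liver library, and 3 (0.0835%) the opposite state. A smaller set had methylation in both tissues and acetylation in 1 of them. H3K4me3 was called in all 4 libraries at 626 liver-only regions (4.57%) and 140 kidney-only regions (3.90%), against 10119 regions (74.7%) of the all-4 class. H3K4me3 in some other pattern of the 4 libraries was found at 1211 liver-only regions (8.84%) and 245 kidney-only regions (6.82%). The shared class was not made of promoters alone, since 2096 of its regions (15.5%) had no H3K4me3 in any of the 4 libraries.

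**Figure D2:**
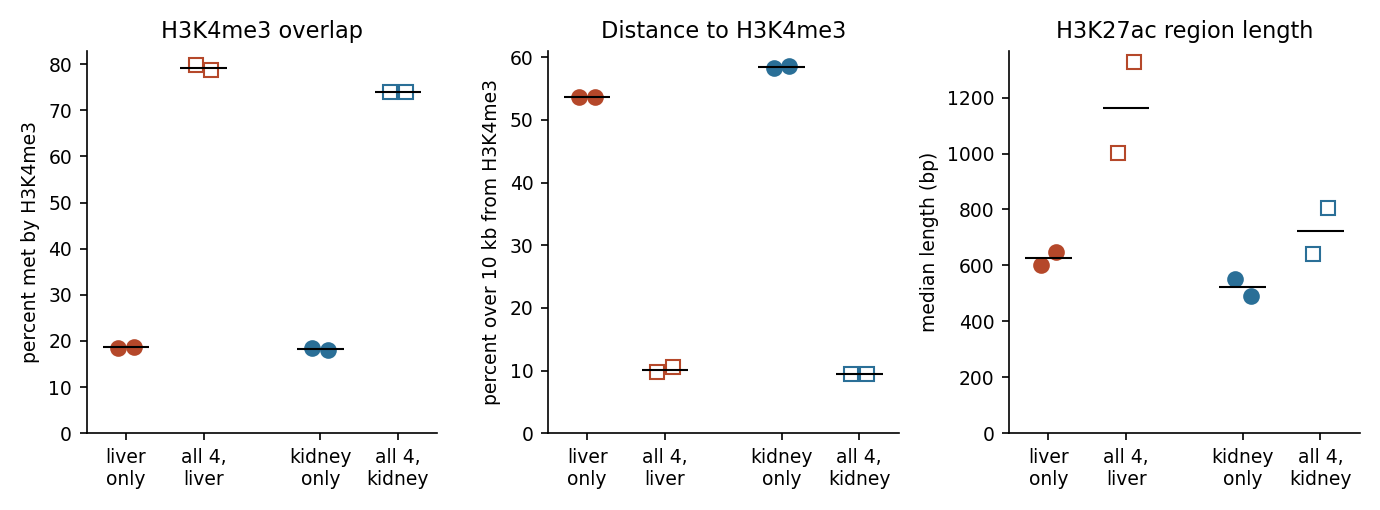
Values of each H3K27ac library for its own regions, liver on the left and kidney on the right of each panel. The left panel gives the percentage met by H3K4me3 of the same tissue. The middle panel gives the percentage more than 10 kb from H3K4me3 of either tissue, and the right panel the median length in bp. Filled circles are tissue-only regions, open squares regions of the all-4 class, and the line is the mean of the 2 libraries. Tissue-only regions lay at 18.1% to 18.8% in the left panel, against 74.0% to 79.8% for the all-4 class.

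Tissue-only regions were shorter. Liver-only regions had median lengths of 603 and 647 bp, against 1002 and 1326 bp for the all-4 regions of the same libraries. Kidney-only regions had median lengths of 551 and 492 bp, against 642 and 807 bp. The difference was negative in 4 of 4 libraries and averaged -371 ± 243 bp (SD, n = 4; p = 0.125 and adjusted p = 0.268 by an exact permutation of signs). A longer region is met more easily by every list, so the way the classes were formed favoured this direction. The order was the same among liver regions outside H3K4me3. Among regions without H3K4me3, liver-only medians were 580 and 608 bp against 691 and 775 bp for all-4. In kidney, the same regions had medians of 535 and 462 bp for kidney-only against 522 and 542 bp for all-4, so that kidney replicate 1 showed the opposite order. Long acetylated domains existed in each class but were rare in the kidney-only class. Merged regions of at least 3 kb numbered 359 of the liver-only class (2.62%), 12 of the kidney-only class (0.334%) and 1310 of the all-4 class (9.67%). Merged all-4 regions join the intervals of more lists than tissue-only regions do, which lengthens them.

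Within shared H3K27ac regions, the liver libraries covered more of the region. The median covered length was 1270.5 and 1466 bp in liver, against 900 and 1080 bp in kidney. Both liver libraries were longer than both kidney libraries at 7355 of the 13548 regions (54.3%), and both kidney libraries were longer than both liver libraries at 690 (5.09%). The longer liver lists thus went with longer liver intervals at regions both tissues shared, and the part of list length in this was not tested.

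Tissue-only regions lay away from promoters marked by H3K4me3. In liver, 53.6% and 53.7% of the liver-only regions were more than 10 kb from any H3K4me3 region of either tissue, against 9.80% and 10.5% of the all-4 regions. In kidney, 58.3% and 58.6% of the kidney-only regions lay that far from H3K4me3 of either tissue, against 9.47% and 9.45% of the all-4 regions. The excess averaged 46.2 ± 3.18 percentage points with the same sign in 4 of 4 libraries (SD, n = 4; p = 0.125 and adjusted p = 0.268 by an exact permutation of signs). Without kidney replicate 2 it was 40.6 points, and with a limit of 50 kb it was 22.1 points. Regions overlapping H3K4me3 count among those within 10 kb, so this excess is not separate from the difference in overlap. Liver-only regions lay that far away in a smaller share than kidney-only regions, with a liver minus kidney difference of -4.78 points (exact permutation test, p = 0.333, adjusted p = 0.357). This difference was 0.82 points with lists of equal length and 8.81 points without liver replicate 2, both of the opposite sign.

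The same distances, again to H3K4me3 of either tissue, can be read on the merged map. Of the regions without H3K4me3, the median distance to the nearest one was 21.3 kb for liver-only regions, 27.7 kb for kidney-only regions and 16.1 kb for regions of the all-4 class. Within 10 kb lay 3593 of 10898 such liver-only regions, 797 of 2903 kidney-only regions and 823 of 2071 all-4 regions. The next shares are of all regions of a class, those overlapping H3K4me3 included. Distances of over 50 to 200 kb were found for 18.6% of liver-only, 22.9% of kidney-only and 3.01% of all-4 regions. Distances over 200 kb were found for 4.54%, 5.89% and 0.466% of them. Among regions without H3K4me3, 2523 of 10898 liver-only, 816 of 2903 kidney-only and 407 of 2071 all-4 regions were at over 50 to 200 kb.

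Tissue-only acetylation lay near methylation of the same tissue more often than near that of the other. A liver-only H3K4me3 region was found within 10 kb of 14.04% of the liver-only H3K27ac regions, while 0.672% of them had a kidney-only H3K4me3 region at that distance. A kidney-only H3K4me3 region was found within 10 kb of 14.5% of the kidney-only H3K27ac regions, while 1.96% of them had a liver-only H3K4me3 region there. Direct overlap is included, at 6.26% of the liver-only regions for liver-only H3K4me3 and 7.07% of the kidney-only regions for kidney-only H3K4me3. Of the all-4 H3K27ac regions, 7.57% had a liver-only and 1.96% a kidney-only H3K4me3 region within 10 kb. Within 100 kb the contrast was narrower in both tissues. Of the liver-only H3K27ac regions, 32.1% had a liver-only and 7.53% a kidney-only H3K4me3 region at that distance. Of the all-4 H3K27ac regions, 26.2% and 9.67% did, so the order at liver-only regions was also that of the shared class. In kidney, 24.5% of the kidney-only H3K27ac regions had a kidney-only and 16.9% a liver-only H3K4me3 region, and 1930 liver-only against 948 kidney-only H3K4me3 regions were available to be met. An all-4 H3K4me3 region lay within 100 kb of 73.3% of all liver-only and 66.4% of all kidney-only H3K27ac regions, those overlapping it included. For the all-4 H3K27ac regions this share was 95.5%.

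Regions of a class lay close together. Another region of the same class was found within 12 kb of 57.9% of liver-only regions, 43.2% of kidney-only regions and 37.96% of all-4 regions, and the classes differ in number, which moves such shares. Joining regions of a class within 12 kb gave 1150 liver-only clusters and 168 kidney-only clusters of at least 3 regions on the numbered chromosomes and X. These clusters held 32.1% of the liver-only and 17.3% of the kidney-only regions there. The cluster with the most regions held 12 in liver and 11 in kidney. The territories of the tissues were partly interleaved. A kidney-only region was found within 100 kb of 22.0% of the liver-only regions, and a liver-only region within 100 kb of 48.7% of the kidney-only regions. Of 2637 windows of 1 Mb that held any region, 1181 held regions of both tissue-only classes, 901 liver-only but no kidney-only regions, and 205 kidney-only but no liver-only regions. More kidney-only than liver-only regions were found in 362 windows, against the overall ratio of 3.81 in favour of liver.

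Every chromosome held more liver-only than kidney-only regions. The ratio ran from 2.72 on chromosome 14 to 5.48 on chromosome X. Chromosome 22 stood out by its shared regions. It held 8.45 liver-only, 1.61 kidney-only and 16.01 all-4 regions per Mb up to the last region, and its 0.53 liver-only regions for each all-4 region was the lowest value of any chromosome, against 1.40 on chromosome 6, the highest.

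Tissue-only regions of this pair were acetylated in few of the other 6 tissues on average. Counting a tissue when both its H3K27ac libraries met the region, the liver-only regions of the liver libraries were found in a mean of 0.442 and 0.450 other tissues, against 4.31 and 4.36 for the all-4 regions. The kidney-only regions of the kidney libraries were found in 0.630 and 0.625 other tissues, against 4.30 and 4.30. The difference averaged -3.78 ± 0.123 tissues (SD, n = 4; p = 0.125 and adjusted p = 0.268 by an exact permutation of signs). Without kidney replicate 2 it was -3.32 tissues. A broadly acetylated region falls in the all-4 class, and the longer all-4 regions are met more easily. The way the classes were formed thus favoured this direction. Liver-only regions were shared slightly less than kidney-only regions, with a liver minus kidney difference of -0.182 tissues (exact permutation test, p = 0.333, adjusted p = 0.357) that was 0.414 without kidney replicate 2.

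On the merged map, 53.7% of liver-only regions, 48.0% of kidney-only regions and 3.09% of all-4 regions were met by no library of any other tissue. Of all liver-only regions, 12.1% were acetylated in both libraries of pancreas, 11.04% in colon and 8.54% in stomach, and the lowest share was 2.79% in heart. Of all kidney-only regions, 15.5% were acetylated in colon, 13.9% in pancreas and 11.9% in stomach, and the lowest share was 7.07% in spleen. The same 3 tissues came first for the all-4 class, with 85.5% in pancreas, 81.7% in stomach and 79.2% in colon, so that this order was not particular to the tissue-only regions. Of the all-4 class, 56.1% was acetylated in all 6 other tissues, and 5.93% (804 regions) in none of them by both libraries.

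**Figure D3:**
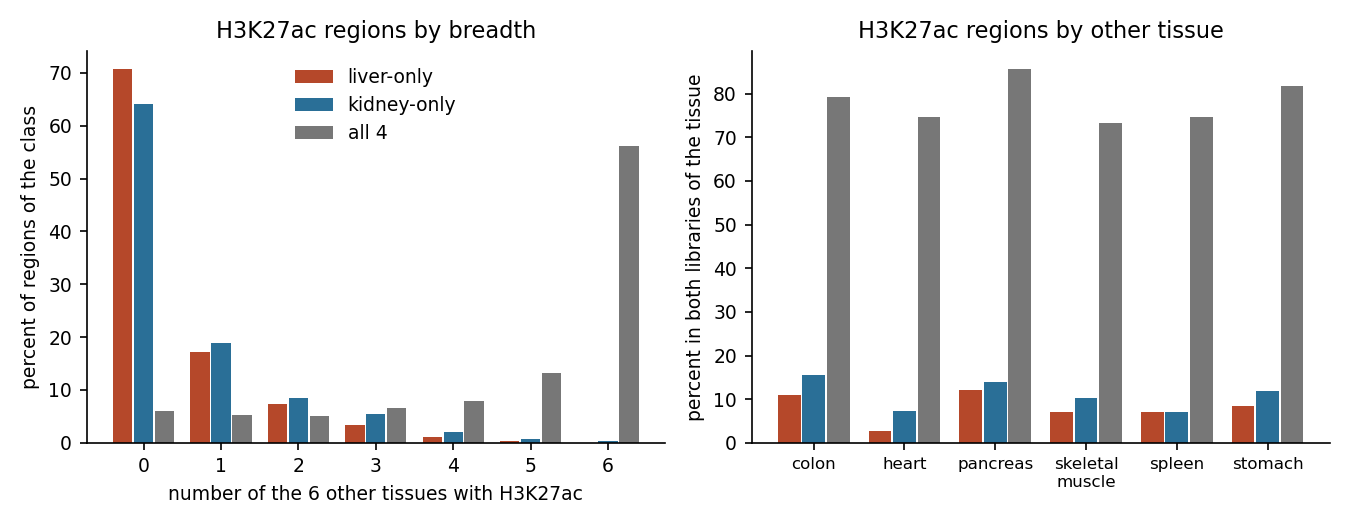
Left, percentage of liver-only, kidney-only and all-4 H3K27ac regions (y axis) by the number of the 6 other tissues whose libraries both met the region (x axis). Right, the percentage met by both libraries of each other tissue. No other tissue was reached by 70.6% of liver-only and 64.0% of kidney-only regions, while 56.1% of the all-4 class reached 6.

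Among H3K4me3 regions held by a single tissue of the pair, nearly all in liver but fewer in kidney also carried H3K27ac. Of the regions of the liver H3K4me3 libraries, 89.9% and 89.9% of the liver-only ones were met by liver H3K27ac, against 91.2% and 90.9% of the all-4 ones. In kidney, 51.6% and 50.9% of the kidney-only H3K4me3 regions were met by kidney H3K27ac, against 83.0% and 83.2% of the all-4 regions. The tissue-only minus all-4 difference was -1.38 and -1.02 points in the liver libraries and -31.4 and -32.3 points in the kidney libraries (mean -16.5 ± 17.7, SD, n = 4; p = 0.125 and adjusted p = 0.268 by an exact permutation of signs). The tissues did not overlap, but both libraries of a tissue were scored on the same merged regions and the same H3K27ac. The mean was -25.9 points without liver replicate 1 and -26.5 points without liver replicate 2. In the comparison of tissue-only regions alone, which was added after the data were examined, liver exceeded kidney by 38.6 points (exact permutation test, p = 0.333). With lists of equal length it was 32.7 points, and the liver H3K27ac lists then still covered more of the genome than the kidney lists (log2 ratio 0.64). Without liver replicate 2 it was 21.7 points and without kidney replicate 1 it was 57.9 points, the ends of the range over replicates left out in turn. With each of 7 tissues as partner of liver, H3K27ac met 83.5% to 93.3% of the merged H3K4me3 regions restricted to liver. For kidney and its 7 partners the range was 51.9% to 71.1%, and the pair with liver gave the lowest share.

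On the merged map, 167 of the 1930 liver-only H3K4me3 regions (8.65%) and 429 of the 948 kidney-only H3K4me3 regions (45.3%) had no H3K27ac in any of the 4 libraries. Acetylation in both liver libraries and no kidney library was found at 882 liver-only H3K4me3 regions (45.7%), and the mirror state at 233 kidney-only H3K4me3 regions (24.6%). At a further 311 liver-only H3K4me3 regions (16.1%) acetylation was present in all 4 libraries, so that methylation was called in liver alone while both tissues were acetylated. That state was found at 34 kidney-only H3K4me3 regions (3.59%). Tissue-only H3K4me3 regions were shorter than shared ones. Their medians were 499 and 664.5 bp in liver against 1055 and 1220 bp for all-4, and 510 and 537.5 bp in kidney against 949 and 984 bp for all-4 (mean difference -499 ± 65.3 bp, SD, n = 4; p = 0.125 and adjusted p = 0.268 by an exact permutation of signs). Here too the way the classes were formed favoured this direction, since a longer region is met more easily.

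**Figure D4:**
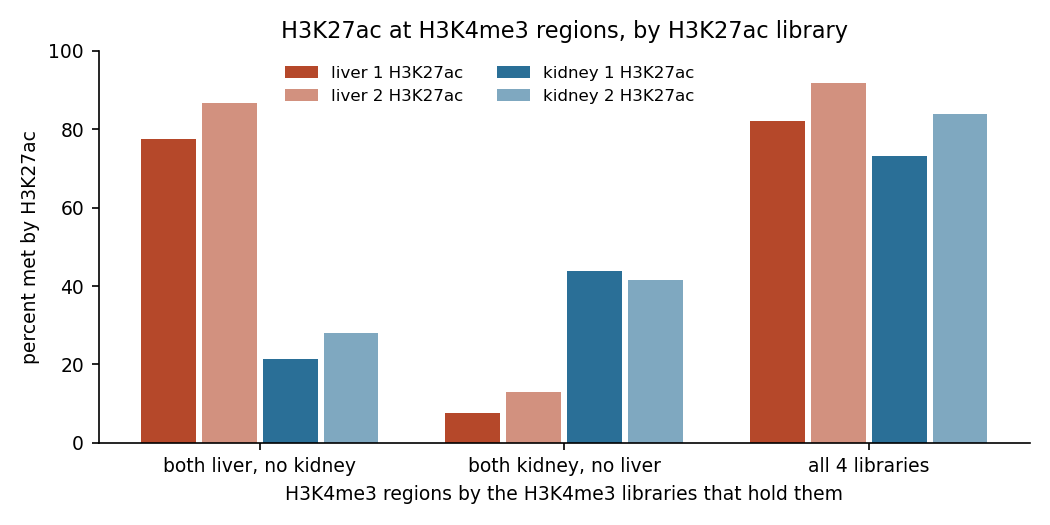
Percentage of merged H3K4me3 regions (y axis) met by each of the 4 H3K27ac libraries (bars), for liver-only, kidney-only and all-4 H3K4me3 regions (x axis). Liver H3K27ac met 77.6% and 86.8% of liver-only H3K4me3 regions, and kidney H3K27ac met 43.8% and 41.6% of kidney-only H3K4me3 regions.

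At regions methylated in both tissues, H3K4me3 was longer in the tissue that also held the acetylation. The 14835 H3K4me3 regions in all 4 libraries were split by their H3K27ac, a comparison added after the data were examined. At the 597 regions acetylated in both liver libraries and no kidney library, the median H3K4me3 length was 883 and 987 bp in liver, against 663 and 694 bp in kidney. At the 133 regions acetylated in both kidney libraries and no liver library, it was 732 and 821 bp in liver, against 1376 and 1449 bp in kidney. The order of the tissues turned between the sets, and within each set the liver and kidney libraries did not overlap. Each library was then given the log2 ratio of its median at liver-acetylated to that at kidney-acetylated regions. The ratio was 0.27 and 0.27 in liver and -1.05 and -1.06 in kidney, a liver minus kidney difference of 1.33 (two-sided exact permutation test, p = 0.333). It was 1.11 with lists of equal length, 0.890 without liver replicate 2 (the ends of the range over replicates left out were 0.890 and 1.16) and 0.53 when an overlap of at least 50% was required. In the main split, an overlap of 1 bp with the merged region was enough. Where H3K4me3 was longer in a tissue, the merged region reached over that tissue's own flank, where its H3K27ac could meet it. The way the sets were formed could thus favour this order, and its part was not tested.

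Region by region, both liver libraries were longer than both kidney libraries at 332 of the 597 liver-acetylated regions (55.6%), and the reverse held at 11 (1.84%). Over all 14835 regions these shares were 35.9% and 13.3%. At the 133 kidney-acetylated regions, both kidney libraries were longer at 99 (74.4%), and both liver libraries at 3 (2.256%). Regions acetylated in all 4 libraries numbered 10108 and had a median log2 ratio of liver to kidney H3K4me3 length of 0.10, the same as over all regions (0.10). The 866 regions without H3K27ac in any of the 4 libraries were short in every library. Their medians were 585 and 686.5 bp in liver, against 692 and 738 bp in kidney.

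**Figure D5:**
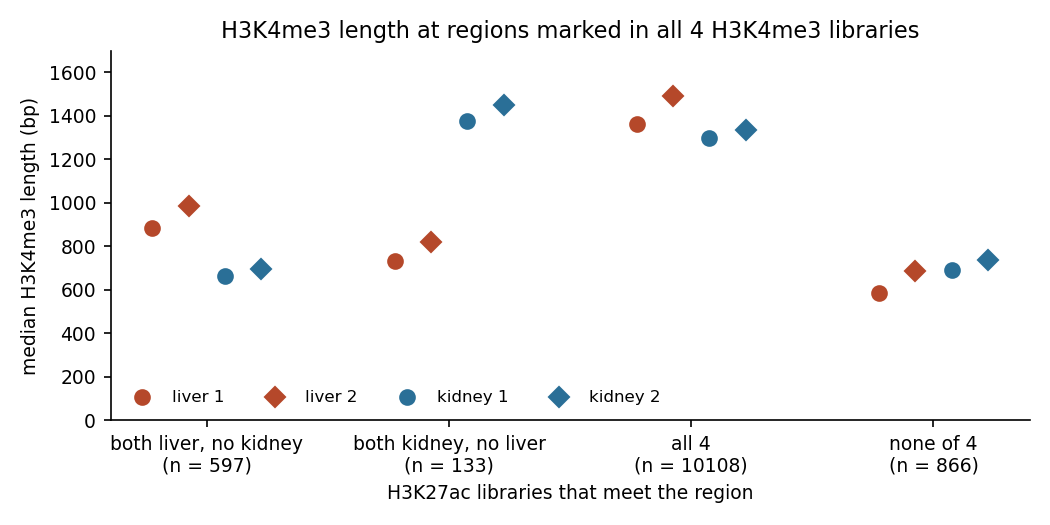
Median H3K4me3 length in bp (y axis) of each liver and kidney H3K4me3 library at regions present in all 4 of them, by the H3K27ac libraries that meet the region (x axis, with the number of regions). Liver points lie above kidney points at regions acetylated in liver alone (883 and 987 against 663 and 694 bp) and below them at regions acetylated in kidney alone (732 and 821 against 1376 and 1449 bp).

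Single regions show these states, with coordinates in the build calJac3, and were chosen by size, so that their acetylation is a description with no test. The liver-only cluster of largest covered length, chr9:45924374-45952907, held 10 regions. Its H3K27ac covered 12.1 and 15.2 kb in liver, against 0 and 0 kb in kidney, and its H3K4me3 covered 3.598 and 5.763 kb in liver, against 0.519 and 0.758 kb in kidney. It was not private to liver within the series, since 11 of 12 H3K27ac libraries of the other tissues met it. The third by covered length, chr10:29988832-30012715, held only 2 long regions. Its H3K27ac covered 11.9 and 12.5 kb in liver, against 0 and 0 kb in kidney, and its H3K4me3 covered 7.22 and 9.61 kb in liver, against 1.14 and 0.650 kb in kidney. Here a shared H3K4me3 core stood within acetylation that was called in liver alone of the pair, and 2 of 12 H3K27ac libraries of the other tissues met it.

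The kidney-only cluster of largest covered length, chr8:28526567-28552132, held 11 regions. Its H3K27ac covered 0 and 0.386 kb in liver, against 8.78 and 11.1 kb in kidney, and its H3K4me3 covered 0.413 and 0.788 kb in liver, against 5.53 and 5.06 kb in kidney. Among the other tissues, 7 of 12 H3K27ac libraries and 10 of 11 H3K4me3 libraries met it. The kidney-only cluster at chr12:105275915-105287650 held 6 regions in 11.7 kb. Its H3K27ac covered 0 and 0 kb in liver, against 7.76 and 7.88 kb in kidney, and its H3K4me3 covered 0.330 and 1.06 kb in liver, against 5.48 and 5.55 kb in kidney. At both clusters, short liver H3K4me3 was present beside kidney H3K4me3 of several kb. The cluster at chr12:105275915-105287650 was seldom acetylated elsewhere, with 1 of 12 H3K27ac libraries of the other tissues meeting it, while 4 of 11 H3K4me3 libraries did.

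Distal acetylation without any H3K4me3 was found among the longest regions as well. The liver-only region chr22:27792938-27800465 carried 6.998 and 5.935 kb of H3K27ac in liver, against 0 and 0 kb in kidney, and lay 24.1 kb from the nearest H3K4me3 region of the pair. The kidney-only region chr4:48661897-48666230 carried 0 and 0 kb of H3K27ac in liver, against 4.07 and 3.42 kb in kidney, and lay 97.9 kb from the nearest H3K4me3 region. Presence in all 4 libraries did not mean equal size. The longest all-4 region, chr19:26006833-26017155, carried 9.45 and 10.3 kb of H3K27ac in liver, against 1.03 and 0.713 kb in kidney.

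Dense windows also differed between the tissues. The 1 Mb from chr1:178000001-179000000 held the most liver-only regions, 32, with 2 kidney-only and 13 all-4 regions. The 1 Mb from chr11:33000001-34000000 held the most kidney-only regions, 17, with 4 liver-only regions and 1 all-4 region. In the window on chromosome 11, H3K27ac covered 13.3 and 13.2 kb in liver, against 23.5 and 20.5 kb in kidney.

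Among the 28 pairs of tissues in the series, liver and kidney stood near the middle in shared acetylation. Their mean H3K27ac Jaccard index of 0.30 was rank 16 from the highest, with a range of 0.236 to 0.415. The ratio of the larger to the smaller tissue-only count, 3.81, was rank 3, with a median of 1.76 over the pairs. Of the H3K27ac regions in all 4 libraries, 84.5% were met by H3K4me3, which was rank 25 of 28. Their H3K4me3 maps were among the more alike, with a mean Jaccard index of 0.622 at rank 5. Pairs share libraries, so these ranks describe the series and were not tested.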

How the data were processed

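Each ChIP library had 1 deposited narrowPeak list, so peaks were called separately for every sample. Per the submitters' processing notes, the tools included MACS2 2.1.1.20160309, bedtools 2.26, Bowtie 1.1.2 and SAMtools 1.3.1. Their roles, the aligner's settings and the use of the inputs are not given in the sources used here, and the 8 input samples are not analysed here. The build calJac3 is taken from the peak names in the deposited lists. The deposited fold enrichment, the authors' ratio of signal at a peak, was used only to rank regions within a list when lists were made equally long, and the deposited −log10 q only for the stricter threshold of 5. The lowest −log10 q in any list was 3.04 and no region was shorter than 300 bp.

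Overlap meant at least 1 bp. Regions of a mark were merged over the 4 liver and kidney libraries and classed by the libraries that met them. A tissue of the background counted when both its libraries met a region. Differences were tested over libraries with two-sided exact permutation or sign-flip permutation tests, adjusted by Benjamini-Hochberg over 15 planned comparisons. Class values of the libraries of a tissue come from the same merged regions and are not independent. Named regions are the 3 largest clusters (joined within 12 kb) and 3 longest regions per class and the 2 densest windows of 1 Mb per tissue, of which some are described. The interval code was tested on simulated data. Python 3.11.15, numpy 2.4.6, scipy 1.17.1 and matplotlib 3.10.9 were used. The classes, comparisons and lists were chosen with earlier results of these data known. Depth is unknown, so no counting interval was computed. Alternatives were the stricter threshold, lists of equal length, numbered chromosomes and X, 50% overlap, the central 300 bp, both libraries of the other mark, a 50 kb limit, H3K4me3 of all 15 libraries, either library of a background tissue, a block for replicate number, and each replicate of a tissue left out in both marks.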

Additional observations from a re-analysis of the deposited data

Results flagged for a closer look

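The length of H3K4me3 at regions methylated in all 4 libraries moved in opposite directions in the 2 tissues. The log2 ratio of the median at liver-acetylated to that at kidney-acetylated regions was above 0 in both liver libraries (0.27 and 0.27) and below 0 in both kidney libraries (-1.05 and -1.06), a liver minus kidney difference of 1.33. The exact permutation test gave p = 0.333, the smallest that 2 against 2 libraries allow. Splitting the regions by an overlap of 1 bp with the merged region could favour these opposite directions. Groups of 2 libraries are too small for a check of single libraries that lie far from the others.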

How the results depend on the processing

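The tissue-only minus all-4 differences kept their direction under every alternative run and with each replicate left out. For region length and the number of other tissues, the way the classes were formed favoured that direction. Over the alternatives, H3K4me3 overlap differed by -62.2 to -57.9 points and H3K27ac region length by -474 to -337 bp. The share over 10 kb from H3K4me3 differed by 22.1 to 47.5 points and the mean number of other tissues by -3.97 to -3.79. With each replicate left out, the ranges were -56.6 to -51.2 points, -406 to -324 bp, 40.6 to 45.6 points and -3.64 to -3.32 tissues. Of 203 values computed under alternatives, 11 lay on the other side of 0 or at it, and 11 counts moved by over 1.5 times.

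With lists of equal length the list length ratios were 0 by construction, liver-only H3K27ac regions numbered 7038, and the liver minus kidney share over 10 kb was 0.82 points. With 50% overlap 7242 H3K27ac regions were in all 4 libraries. The liver minus kidney H3K4me3 overlap of tissue-only H3K27ac regions was -0.0778 points for the central 300 bp and -1.65 points with both H3K4me3 libraries required. The cause of these shifts was not tested.

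With each replicate left out, liver-only H3K27ac regions numbered 15307 to 29530 and kidney-only ones 3954 to 10638, and for H3K4me3 2547 to 5764 and 1172 to 2267, since a class then rests on fewer libraries. The H3K27ac replicate excess ranged from -0.0360 (without liver replicate 1, kidney libraries alone) to 37.2 points, and the H3K4me3 list length log2 ratio from -0.0139 to 0.18. Liver minus kidney differences of tissue-only H3K27ac regions were the least stable, from -15.7 to 16.8 points in H3K4me3 overlap (below 0 without either liver replicate), -18.2 to 8.81 points in the share over 10 kb and -0.57 to 0.41 other tissues.

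The labels share replicate numbers. Over all merged regions, within-tissue deviations of liver and kidney correlated by 0.07 for H3K27ac and 0.01 for H3K4me3. Many of these regions were called in 1 tissue only, so a low correlation does not tell whether the numbers are paired. With the replicate number as a block, the H3K27ac list length ratio was 0.60 (exact sign-flip permutation test, p = 0.5, the smallest for 2 pairs) and no direction changed. Depth per library is unknown, and regions absent from a list may lie below its threshold.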
